A study of Drosophila melanogaster with 20 samples.

Results

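Transcription start sites used by 3 or more listed transcripts were examined among the genes regulated in rasV12FRT82Bscrib1 tumors relative to FRT82B control. A start site was taken as 1 distinct region of 5 kb directly upstream of a transcription start, defined by its chromosome, start and end in the dm3 build of the Drosophila melanogaster genome, and it was kept when that region occurred in 3 or more rows of the deposited list. Each row stands for 1 annotated transcript, and whether that transcript is made in the discs was not analysed. Of 4926 distinct start sites, 399 (8.10%) met this rule. They held 1700 of the 6947 rows, or 24.5% of the list.

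RNA was sequenced from 20 samples of mosaic eye/antennal imaginal discs (EAD) of third-instar larvae in 6 genotypes. The lists rest on 4 samples of rasV12FRT82Bscrib1, in which clones expressed oncogenic Ras (RasV12) and were homozygous for the scrib1 allele of the polarity gene scribble, and 4 samples of FRT82B, in which clones carried the same recombination site without either lesion. All crosses used the MARCM method, in which ey-FLP1 makes the clones in the eye/antennal epithelium and GAL4 under an act promoter drives the transgenes and GFP in clone cells only. The discs therefore also held cells outside the clones, and in such bulk RNA fewer cells of a type and less RNA per cell cannot be told apart. Every listed start site comes from the 1 comparison of these groups. The lists give positions only, so gene names, the direction and size of a change, expression per sample, replicate error and tissue markers were not analysed here. The authors scanned these regions, with the first introns, for motifs of AP-1, Ets21c and Ftz-F1, transcription factors that they studied as effectors of JNK signaling.

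A gene can make several mRNAs from 1 promoter, because RNA polymerase starts at the same place while splicing and 3′ end formation differ further along the transcript. Where the difference lies in the first intron, it is set by the donor (the 5′ splice site that ends the first exon) and the acceptor (the 3′ splice site that begins the second exon). First introns in flies often carry enhancers, which is a reason for scanning them together with the upstream sequence. Transcripts of 1 start site share the whole upstream region, and they may or may not share the first intron.

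Few start sites held many rows. Exactly 3 rows were found at 205 start sites, just inside the rule, and 2 rows at 720 start sites, just outside it. A further 3807 start sites had 1 row. Among the 399 shared start sites the median was 3 rows, 306 had 3 or 4 rows, 81 had 5 to 9, and 12 had 10 or more. Those 12 held 189 rows. Counted by row, the shared regions summed to 8500 kb, against 1995 kb when each was counted once, so 1301 of their rows repeat sequence already present in the list.

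**Figure D1:**
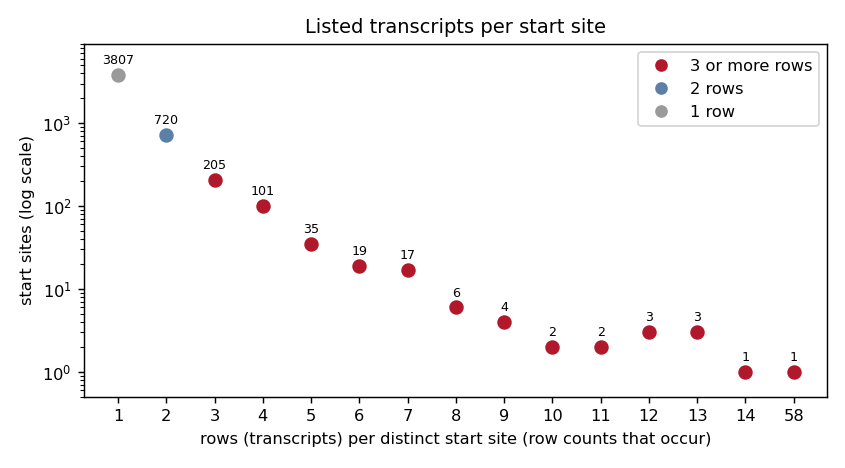
Distinct start sites (y axis, log scale, number beside each point) by how many rows of the upstream list they hold (x axis, only row counts that occur). Red points are the shared start sites, which run from 205 start sites with 3 rows to a single start site with 58 rows.

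The start site with most rows belonged to the region chrX:16421448-16426447, on the minus strand, with 58 rows. All 58 transcripts had the same first exon of 138 bp and the same first intron of 5123 bp, so whatever tells them apart lies downstream of the first intron. The next in order, chrX:2439424-2444423, had 14 rows, again with a single first intron, here of 620 bp behind a first exon of 8 bp. Leaving out the start site with 58 rows left 1642 rows at shared start sites.

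Start sites with 13 rows differed in how they used the first intron. At chr2R:2859143-2864142 all 13 transcripts had a first exon of 745 bp and a first intron of 7797 bp. At chrX:15272488-15277487 the 13 transcripts shared a donor 266 bp from the start but joined it to 3 acceptors, giving introns of 595 bp in 6 rows, 6500 bp in 4 rows and 5980 bp in 3 rows. At chr3R:7819038-7824037 a first exon of 67 bp was followed by an intron of 396 bp in 6 rows or 374 bp in 5 rows. The other 2 rows there had a first exon of 574 bp, which runs across both of those introns, and introns of 598 and 3413 bp.

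Start sites with 11 or 12 rows showed the same contrast. At chr2L:4591964-4596963 and chr3L:19330710-19335709, 12 transcripts each had 1 first intron, of 17170 and 18391 bp. At chr3L:954661-959660, 11 of 12 rows had a first exon of 310 bp and an intron of 7277 bp, while 1 row ended the exon at 182 bp and joined the same acceptor through an intron of 7405 bp. At chr2L:17752347-17757346 all 11 rows shared an intron of 12225 bp. At chr3L:16928637-16933636, 8 of the 11 rows spliced to 1 acceptor 231 bp from the start, using donors at 49 bp in 4 rows, 172 bp in 3 rows and 80 bp in 1 row. The remaining 3 rows kept that stretch in a first exon of 343 bp, followed by an intron of 1833 bp. Of the 12 start sites with 10 or more rows, 7 had a single first intron. On chromosome 4 the start site with most rows, chr4:1104445-1109444, had 7 rows and a single first intron of 3196 bp.

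**Figure D2:**
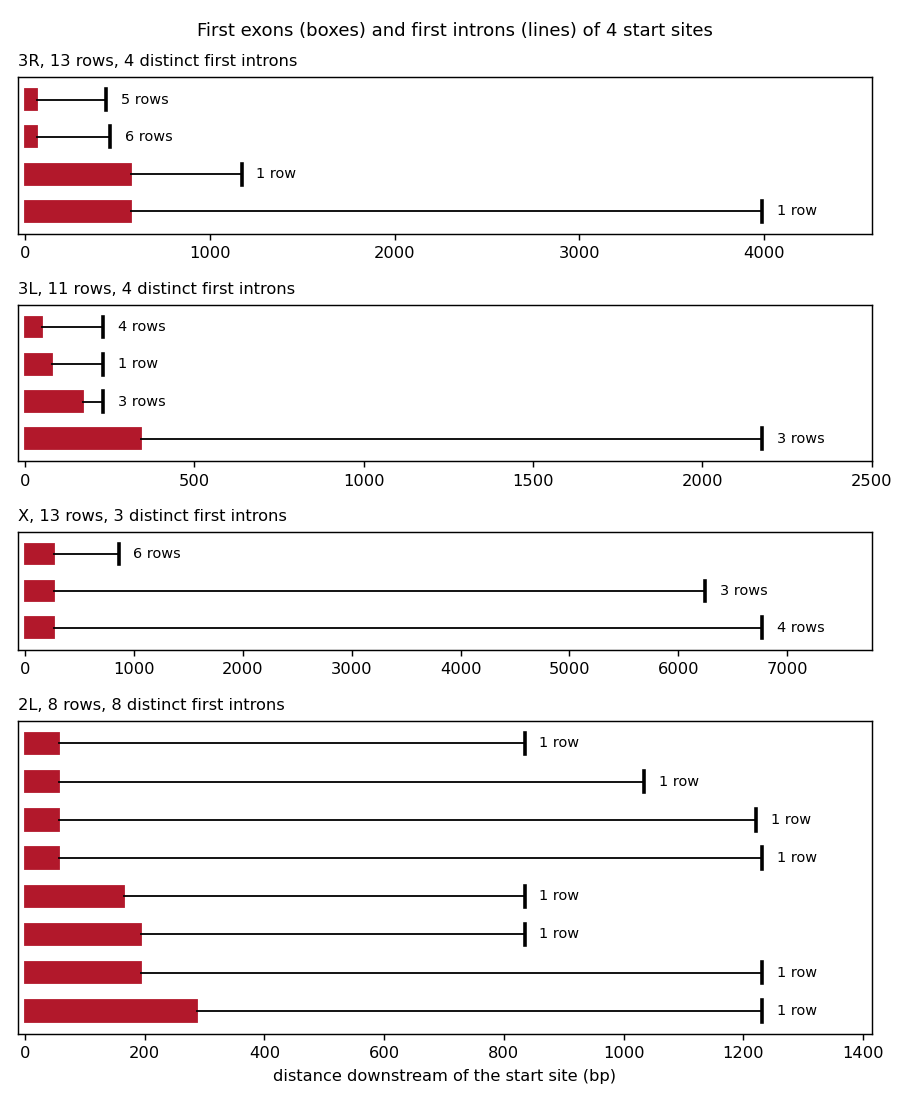
First exons (red boxes) and first introns (lines, with a bar at the acceptor) drawn to scale against the distance from the start site in bp, with the number of rows that use each. At the X start site with 13 rows, 1 donor joins 3 acceptors, and at the 2L start site with 8 rows every row has its own first intron.

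Over all shared start sites, 397 had at least 1 row with a first intron, and these carried 771 distinct first introns in 1688 rows. A single distinct first intron was found at 176 start sites (44.1%, 95% Wilson confidence interval 39.3 to 49.0%). At all but 1 of these every row had it. Another 221 had several first introns, of which 113 had 2, 75 had 3, 26 had 4, and 7 had 5 to 8. How many first introns a start site can have is bounded by its rows, so these numbers are given without comparison to the other start sites. In 63 shared start sites every row had a first intron of its own, 46 of them among the start sites with 3 rows. The commonest first intron was used by most of the paired rows in 107 of the 221.

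Donors and acceptors varied about equally often. The donor was fixed and the acceptor varied at 69 start sites (17.3%, 13.9 to 21.3%), whereas the acceptor was fixed and the donor varied at 74 (18.5%, 15.0 to 22.7%). Both varied at 78 (19.5%, 16.0 to 23.7%). The median first intron was 2053 bp (95% interval 1418 to 3101) at start sites with 1 first intron and 1803 bp (1186 to 3718) where the acceptor varied. It was 1134 bp (848 to 1779) where the donor varied and 966.5 bp (589 to 1708) where both did, and the intervals of all these classes overlap.

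The 3 start sites with most first introns lay on 2L and 2R. At chr2L:20819437-20824436 all 8 transcripts had different first introns of 641 to 1174 bp, built from donors at 57, 165, 194 and 288 bp and acceptors at 835, 1034, 1222 and 1231 bp from the start. At chr2L:9908634-9913633, 9 rows used 6 introns of 524 to 748 bp from 3 donors and 3 acceptors. At chr2R:9055536-9060535, 6 rows used 6 introns of 1153 to 1272 bp from 4 donors and 2 acceptors, and those acceptors lay 5 bp apart. Start sites with 5 introns numbered 4. Among these, chr2L:3632104-3637103 and chr3R:22801241-22806240 had 5 rows each, with introns of 130 to 4339 bp and of 75 to 811 bp. The others lay on X, chrX:9964900-9969899 with 6 rows and chrX:22257031-22262030 with 5 rows.

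The size of the shift differed between donors and acceptors, but the 2 are not bounded alike. The donor position is the first exon length, which had quartiles of 137 and 451 bp over shared start sites. The acceptor position adds the intron, which had quartiles of 541 and 4561 bp, so acceptors had more room to lie far apart. Among the 69 start sites with 1 donor, neighboring acceptors were 3 to 42594 bp apart over 89 steps, with a median of 296 bp, and 33 of the steps were longer than 1000 bp. Among the 74 with 1 acceptor, neighboring donors were 2 to 826 bp apart over 103 steps, with a median of 61 bp and none longer than 1000 bp. A far acceptor can mean another second exon, while a near one can lengthen or shorten the same exon. The lists do not give the ends of second exons, so which of these holds was not determined. The most frequent single spacing of acceptors was 3 bp, in 10 of the 89 steps (11.2%, 6.22 to 19.5%), as at chr3L:1637753-1642752, where the introns of 453 and 450 bp end 3 bp apart. Acceptors in tandem 3 bp apart are a well-known splicing arrangement, in which the choice adds or removes 1 codon when it falls in coding sequence. Donors were 3 bp apart in 1 of the 103 steps and 4 bp apart in 5. At start sites with 2 rows the corresponding shares were 17 of 127 acceptor steps at 3 bp (13.4%, 8.53 to 20.4%) and 2 of 87 donor steps (2.30%, 0.633 to 8.0%), so the same spacing of acceptors was seen there too.

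**Figure D3:**
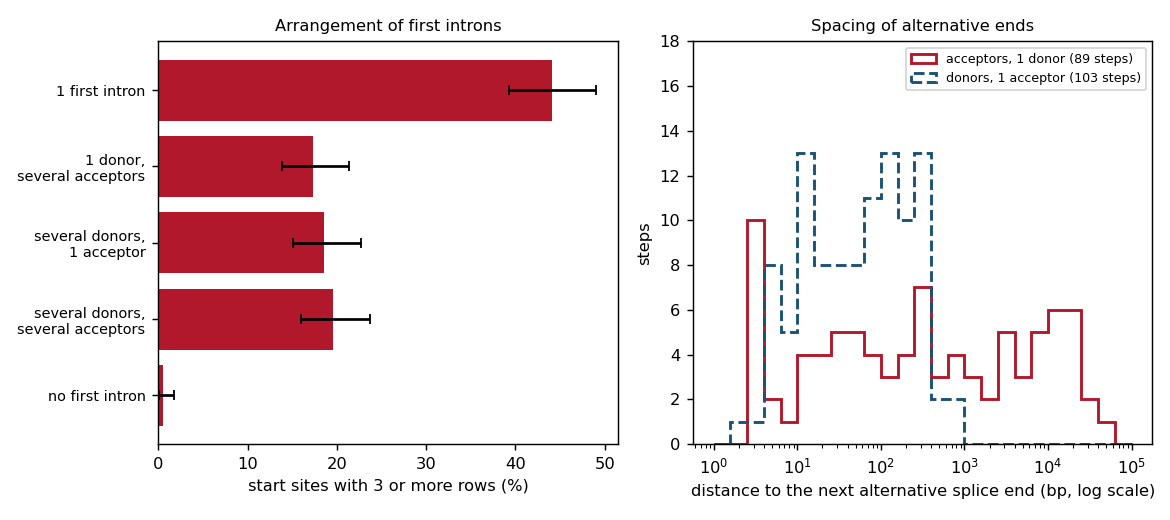
Left, share of the 399 shared start sites (x axis, %) in each arrangement of first introns, with 95% Wilson intervals. Right, number of steps (y axis) by the distance in bp between neighboring alternative acceptors (solid, 89 steps) or donors (dashed, 103 steps) on a log axis. Acceptor steps have a peak at 3 bp and a tail of 33 steps beyond 1000 bp, and donor steps end at 826 bp.

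At several start sites the choice of splice ends decided whether the first intron was short or long. The longest first intron was at least 10 times the shortest at 29 of the 221 start sites, although the median ratio was 1.23. At 35 start sites the first introns lay on both sides of 1 kb. The largest ratio, 119, was seen at chr3L:6696622-6701621, where 3 rows had introns of 90 to 10729 bp. This start site was picked after its values were seen. At 32 shared start sites, with 155 rows, a first intron of some transcripts lay wholly inside the first exon of others. As annotated, that stretch is removed in some transcripts and kept in others. At chr3L:7848649-7853648, 2 rows had an exon of 270 bp and an intron of 1089 bp. The other 4 rows had an exon of 2366 bp that covers both, followed by introns of 33153 and 34959 bp. At chr3R:25697782-25702781, 3 of 4 rows spliced from 56 or 119 bp to an acceptor at 867 bp, while 1 row had a first exon of 2751 bp and an intron of 17489 bp. At chrX:16043011-16048010, introns of 1532 and 1708 bp were used in 1 row each, and a first exon of 2114 bp with an intron of 17848 bp in the third.

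Rows without a first intron were rare at shared start sites. They numbered 12 of 1700, of which 6 fell on the pair of start sites of chr3L:15324793-15329792 and chr3R:24410835-24415834, where none of 3 rows had an intron. The other 6 rows fell on 6 start sites that mixed rows with and without an intron, for example chr3R:2882898-2887897, where 2 rows had an intron of 66 bp and 1 row had none. Start sites without any first intron made up 0.501% of the shared start sites (2 of 399, 0.138 to 1.81%), 2.78% of those with 2 rows (20 of 720, 1.81 to 4.25%) and 16.9% of those with 1 row (642 of 3807, 15.7 to 18.1%). The difference was −2.28 percentage points against 2 rows (95% Newcombe interval −3.79 to −0.647) and −16.4 points against 1 row (−17.6 to −14.6). A lack of introns in every row is harder to meet with more rows, so the rule of 3 rows itself bears on this difference. When 1 row without an intron was enough, a measure easier to meet with more rows, the differences were −3.69 points (−5.87 to −1.29) against 2 rows and −14.9 points (−16.4 to −12.6) against 1 row.

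First introns were longer at shared start sites than elsewhere in the list. The length of a start site was taken as the median over its rows, since the longest of several introns grows with the number of rows. It had a median of 1582 bp (95% order-statistic interval 1261 to 1908, n = 397) at shared start sites, 657.75 bp (537 to 905, n = 700) at start sites with 2 rows and 231 bp (201 to 267, n = 3165) at start sites with 1 row. Start sites that share a first-intron donor or acceptor on a strand were also reduced to the one with most rows. The medians were then 1554 bp (1245 to 1852) at shared start sites, 556 bp (471 to 759) with 2 rows and 117 bp (100 to 135) with 1 row. This step drops a start site with 1 row wherever a linked one has more rows, so it changes which of them remain. The quartiles of the shared start sites were 541 and 4561 bp, and their range was 50 to 74039 bp. A first intron of 1 kb or longer was found at 61.5% of shared start sites (244 of 397), 44.9% of those with 2 rows (314 of 700) and 30.8% of those with 1 row (974 of 3165). The differences were 16.6 points (95% Newcombe interval 10.5 to 22.5) and 30.7 points (25.5 to 35.6). Start sites are not biological replicates, and those of 1 gene are not independent, so the intervals describe the lists only.

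Introns of 100 bp or shorter, the compact class typical of fly genes, were found at 9.32% of shared start sites (37 of 397), against 25.3% (177 of 700) with 2 rows and 40.9% (1296 of 3165) with 1 row. These differences were −16.0 points (−20.1 to −11.5) and −31.6 points (−34.7 to −27.9). Between 1 and 10 kb lay 48.6% of shared start sites, against 34.9% and 24.5%. Introns of 10 kb or longer were found at 12.8% of shared start sites (51 of 397), 10% with 2 rows (70 of 700) and 6.26% with 1 row (198 of 3165). The difference was 6.59 points (3.52 to 10.3) against 1 row, and 2.85 points against 2 rows with an interval that includes 0 (−0.977 to 7.01). Taking the longest intron of each start site gave 6.16 points against 2 rows (1.97 to 10.7), but the longest grows with the number of rows. The shortest intron, which tends to fall with more rows, gave 1.18 points (−2.35 to 5.07). Among start sites with 1 first intron only, the difference against 2 rows was 6.31 points, with an interval that excluded 0 (0.489 to 13.1). Over single rows, 67 shared start sites had an intron of 10 kb or longer in at least 1 transcript.

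**Figure D4:**
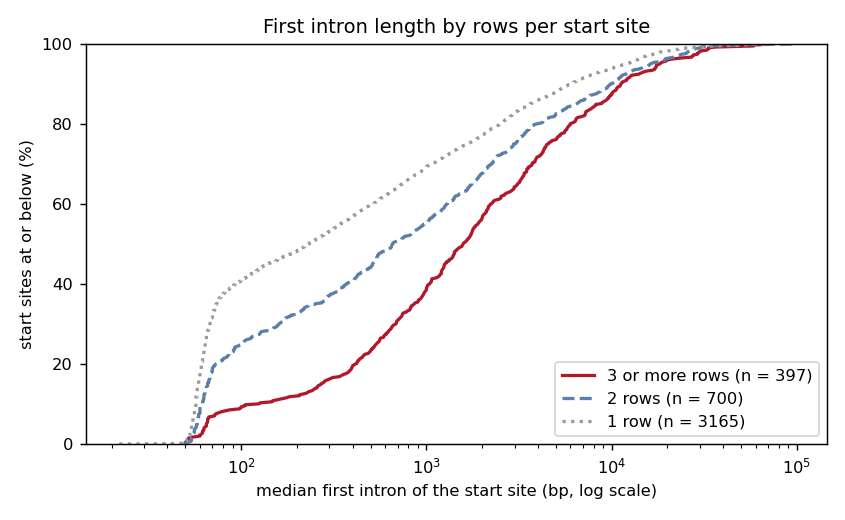
Cumulative share of start sites (y axis, %) by the median first intron of their rows (x axis, bp, log scale), for 397 start sites with 3 or more rows (solid), 700 with 2 rows (dashed) and 3165 with 1 row (dotted). At 100 bp the curves stand at 9.32, 25.3 and 40.9%, and they come together above 10 kb.

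Within the shared start sites, length did not rise steadily with the number of rows. The median was 1459 bp (1132 to 1993) with 3 rows, 1779 bp (1246 to 2965) with 4, 1214 bp (691 to 2346) with 5 or 6 and 2158 bp (1069 to 7277) with 7 or more. All of these intervals overlap. Introns of 1 kb or longer were found at 60.6% (53.7 to 67.1%) of start sites with 3 rows, 64.4% (54.6 to 73.0%) with 4, 53.7% (40.6 to 66.3%) with 5 or 6 and 69.2% (53.6 to 81.4%) with 7 or more.

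The longest first introns at shared start sites exceeded 30 kb. On sequence that dm3 does not place on a chromosome, chrU:1237641-1242640 had 3 rows with a single intron of 74039 bp. At chr3L:1101090-1106089, 4 of 5 rows had an intron of 58746 bp and 1 row used the same donor with an intron of 19428 bp. At chr3R:4983673-4988672 each of 3 rows had its own acceptor, with introns of 15786, 58380 and 76095 bp behind a first exon of 833 bp. At chrX:7498182-7503181, 2 rows had an intron of 36241 bp and 1 row an intron of 19279 bp. At chr3L:19038550-19043549 all 3 rows had an intron of 33245 bp. At these start sites the first intron far exceeds the 5 kb upstream region in the sequence to be scanned.

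In the later BDGP6.54 annotation of Ensembl, start sites with several transcripts also had longer first introns. Only counts and lengths were taken from it for the values given here. The median over all annotated protein-coding start sites was 829 bp (752.5 to 929, n = 2323) with 3 or more transcripts, 249.5 bp (216 to 281, n = 3699) with 2 and 114 bp (108 to 121, n = 10895) with 1. Start sites with 3 or more transcripts were 12.1% of 19295 annotated start sites. That annotation is of a later build and was not matched to the lists by position, so its values stand beside those of the lists without a comparison.

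First exons did not set the shared start sites apart. The median first exon was 238 bp (216 to 265.5) at shared start sites, 241.25 bp (218 to 270) with 2 rows and 226 bp (219 to 238) with 1 row. First exons of 500 bp or longer were found at 19.6, 20.4 and 20.3% of them. The differences were −0.781 points (−5.57 to 4.27) against 2 rows and −0.605 points (−4.49 to 3.80) against 1 row, so a difference beyond those bounds was not seen. The longest first exon at a shared start site was 3289 bp, at chr2R:6006794-6011793, followed by an intron of 1003 bp in all 3 rows. A first exon of 2653 bp at chr3L:16887516-16892515 was followed by an intron of 60 bp in all 3 rows. The other long first exons, of 2751, 2366 and 2114 bp, are those described above, and each runs across a first intron of other transcripts from its start site.

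Many shared start sites had further start sites close by. Strand was read from the side on which the first intron lies. Start sites without a first intron were therefore not counted as neighbors here or in what follows, except for the overlap of upstream regions. The shares may thus understate the listed neighbors. A second listed start site on the same strand lay within 5 kb of 42.1% (167 of 397), against 44.3% (310 of 700) with 2 rows and 51.2% (1621 of 3165) with 1 row. The difference was −2.22 points (−8.25 to 3.89) against 2 rows and −9.15 points (−14.2 to −3.94) against 1 row. Start sites on the other strand within 5 kb were found at 13.4% of shared start sites (53 of 397), 16.9% with 2 rows and 20.2% with 1 row. The difference against 1 row was −6.81 points (−10.1 to −2.87), but within 1 kb it was −0.776 points (−2.73 to 1.95). A start site on the other strand that points away lay within 1 kb of 5.04% of shared start sites, 4.86% of those with 2 rows and 5.28% of those with 1 row, differences of 0.181 points (−2.37 to 3.13) and −0.239 points (−2.18 to 2.48). Upstream regions overlapped another distinct region at 53.1% of shared start sites (212 of 399), 58.9% with 2 rows and 64.0% with 1 row, differences of −5.76 points against 2 rows (−11.8 to 0.298) and −10.9 points against 1 row (−16.0 to −5.80). The median distance to the nearest start site on the same strand was 8385 bp (6516 to 10684) for shared start sites, 7158 bp (5982 to 8750) for those with 2 rows and 4619 bp (4016 to 5111) for those with 1 row.

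Some start sites were split by a few bases. At 8 shared start sites another one lay within 10 bp on the same strand, and at 32 within 100 bp (8.06%, against 8.66% with 1 row). On 2R, chr2R:3511303-3516302 and chr2R:3511307-3516306 are 4 bp apart and have 3 rows each. Merging start sites within 10 bp gave 416 shared start sites and merging within 100 bp gave 447.

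Start sites on the same strand were linked when they shared a donor or an acceptor position of a first intron. At least 1 other start site was linked to 128 of 397 shared start sites (32.2%), compared with 29.7% with 2 rows and 29.0% with 1 row, differences of 2.53 points (−3.09 to 8.29) and 3.21 points (−1.49 to 8.20) whose intervals include 0. A start site with more rows can bring more donors and acceptors, and so more chances of a link. The number of rows itself therefore bears on this comparison. There was 1 linked start site at 79 of them, 2 at 29 and 3 or more at 20. In 26 linked groups 2 shared start sites stood together. The most linked was chr3R:102553-107552, with 3 rows, 3 donors and 1 acceptor, which was linked to 10 other start sites and had 11 within 5 kb on its strand. Next came chrX:1501375-1506374, whose 7 rows had introns of 11334 bp in 6 and 1062 bp in 1, and chrX:1731662-1736661, with 3 rows and introns of 561 to 808 bp, each linked to 7 others. On 3R, chr3R:26353337-26358336 had 5 rows with 4 introns of 416 to 474 bp and 5 linked start sites. On 3L, chr3L:124451-129450 had 3 rows with introns of 5569 and 11881 bp and 4 linked start sites.

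A shared start site lay inside the first intron of another listed start site on the same strand, as an internal promoter does, at 66 of 397 (16.6%, 13.3 to 20.6%). This was 16.4% with 2 rows and 16.7% with 1 row, differences of 0.196 points (−4.24 to 4.93) and −0.121 points (−3.72 to 4.05). The start site with 12 rows at chr2L:4591964-4596963 was among them. Inside a first intron on the other strand, as in a gene nested within another, lay 4 shared start sites (1.01%, 0.392 to 2.56%).

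**Figure D5:**
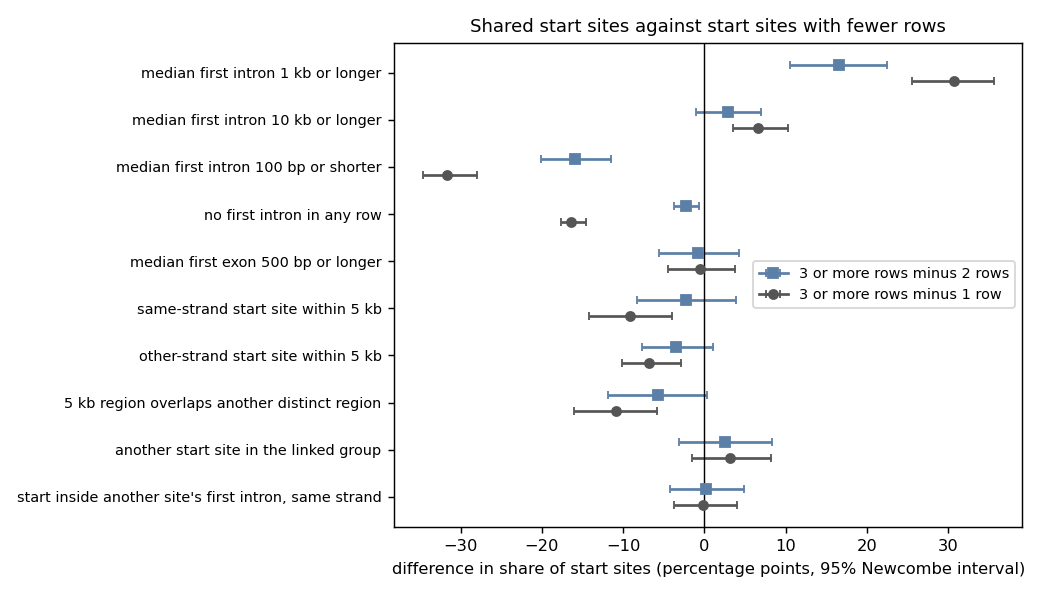
Difference in the share of start sites with each feature (x axis, percentage points, bars are 95% Newcombe intervals), as shared start sites minus those with 2 rows (squares) or with 1 row (circles). The intervals for introns of 1 kb or longer, for introns of 100 bp or shorter and for the lack of an intron exclude 0 in both comparisons, whereas those for introns of 10 kb or longer exclude it against 1 row only.

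The shared start sites were spread over all chromosome arms. Arm 3L held 96 of them, 3R 93, 2L 75, 2R 70 and X 56, whereas chromosome 4 held 7. They were read from the plus strand in 191 cases and from the minus strand in 206. Their share of the distinct start sites of an arm was 7.04 to 9.38% on the 5 long arms, and the interval of the difference from the rest of the list included 0 on each of these. On the small chromosome 4 it was 18.4% (7 of 38, 9.22 to 33.4%), 10.4 points above the rest (1.17 to 25.4), a value that rests on 7 start sites and is 1 of 7 such comparisons, with no adjustment. Of these 7, 6 had a single first intron, of 50 to 3196 bp. The other, chr4:326440-331439, had 4 rows that joined 4 donors to 1 acceptor through introns of 471 to 553 bp. The remaining 2 shared start sites lay on sequence outside the arms, that on chrU given above and chr3LHet:202679-207678, whose 3 rows shared an intron of 1393 bp.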

How the data were processed

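Per the labels and the methods of the study, RNA libraries of 20 samples were processed with CASAVA, reads were mapped to BDGP R5/dm3 with TopHat2 2.0.10 (the version given for some samples in the submitters' processing notes), and genes were quantified with Cufflinks 2.1.1 and DESeq2 on an Ensembl annotation. The 2 deposited lists hold positions of 5 kb upstream regions (6947 rows) and first introns (6232 rows) of genes regulated in rasV12FRT82Bscrib1 against FRT82B. The study scanned regions of all the genes it counted as differentially expressed in this comparison, and states that the regions are deposited. Its figure legend gives a fold-change and P cut-off for those genes. The methods also name a stricter cut-off, for an export of gene lists. The lists hold positions only, so the cut-off was not checked against them. Depth per sample was not analysed here. Positions are printed counting from 1.

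Both lists follow 1 order of transcripts. An order-preserving alignment, in which each intron had to lie downstream of its region within 20 kb, paired all 6232 introns and left no start site with 2 strands. The longest first exon was 3781 bp. Shares carry 95% Wilson intervals, differences Newcombe intervals and medians order-statistic intervals. No test over samples was possible, and no chance test over start sites was run. Pairing was tested on transcripts of randomly drawn genes of the BDGP6.54 annotation, in shuffled order. Neighboring rows were then seldom of the same gene, so pairing among adjacent rows of 1 gene was hardly tested. Linking and intervals were tested on simulated data. Start sites were named in the text by fixed rules: the 10 with most rows, the one with most rows on each arm, and the 5 highest for distinct first introns, median first intron, first exon and linked start sites, with ties in order of chromosome and start. Other examples were picked after their values were seen. Members and rules were chosen with earlier results of these data known. Gene names were not assigned and sequences are not printed, since a dm3 genome or annotation was not used here. Alternatives were start-site merging, the row minimum, pairing reach and order, the intron taken per start site, 1 start site per linked group, distance and overlap limits and linking. The alternative pairing reach, 5 kb, exceeded the longest first exon, so it could not change a value. The scripts ran in Python 3.11.15 with scipy 1.17.1, numpy 2.4.6, numba 0.67.0 and matplotlib 3.10.9.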

Additional observations from a re-analysis of the deposited data

How the results depend on the processing

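No paired analysis was possible because the lists hold no value per sample, and leaving out each replicate was not run for the same reason. Of 75 alternative values for 24 results, 66 were classed as unchanged. For a difference this meant the same sign, and an interval that included or excluded 0 as before. For a median it meant a value inside the main interval, and for a count a value within a fixed ratio of the main count. The 66 include the values with pairing within 5 kb, which could not differ from the main ones. With 4 or more rows required, 194 start sites remained in place of 399, fewer by construction. The median first intron of shared start sites moved to 1997 bp with the longest intron and to 2053 bp with start sites of 1 first intron only. With 2 rows it moved to 534.5 bp with the shortest intron, and with 1 row to 117 bp with 1 start site per linked group, which keeps the start site with most rows. The difference in introns of 10 kb or longer against 2 rows, 2.85 points, was 6.16 points (1.97 to 10.7) with the longest intron and 6.31 points (0.489 to 13.1) with 1 first intron only, and these intervals no longer include 0. The longest intron grows with the number of rows, and with the shortest intron the difference was 1.18 points (−2.35 to 5.07). For start sites on the other strand within 1 kb in place of 5 kb, the difference was 0.0378 points (−2.53 to 3.00) in place of −3.51 against 2 rows, a change of sign with both intervals including 0. Against 1 row it was −0.776 points, with an interval that includes 0, in place of −6.81. The cause was not tested. The excess of first introns of 1 kb or longer ranged from 15.3 to 23.1 points against 2 rows and from 26.4 to 36.8 points against 1 row over its alternatives, of which the restriction to chromosome arms was chosen after seeing the data.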
